A study of Homo sapiens with 4 samples.

Results

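The promoters of 9 genes of MHC class I antigen presentation were examined in HEK293T cells with and without MORC2: HLA-B, HLA-C, HLA-E, HLA-F, B2M, TAP1, TAP2, TAPBP and NLRC5. The genes were chosen by name, as class I genes with their loading and regulatory genes, and all 9 were found among the 28775 promoters of the deposited table and passed the filter on low counts. At an adjusted p under 0.05, 4.45% of all 27647 promoters tested differed in accessibility between MORC2 KO and WT cells. None of the 9 did, which at so low a share does not set these genes apart. The nearest was HLA-E, at 41.6 ± 0.675 CPM (fragments scaled to library size; mean ± SD, n = 2 libraries) in MORC2 KO and 36.5 ± 0.234 in WT cells, which is 0.19 higher on the log2 scale with an adjusted p of 0.144 (edgeR quasi-likelihood F-test).

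The assay was ATAC-seq, where Tn5 transposase inserts sequencing adapters into exposed DNA, and covered 4 libraries of HEK293T, an established human embryonic kidney line. MORC2 is a GHKL ATPase that works with the HUSH silencing complex. The 2 MORC2 KO libraries were bulk pools of edited cells rather than clones, each made with Cas9 protein and a different guide RNA, so that guide and replicate cannot be told apart, and the sequences of the guides overlap. The other 2 libraries were replicates of wild-type (WT) cells, and whether these had received Cas9 or a control guide is not given in the sources used here.

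MHC class I molecules display peptides from inside the cell to CD8 T cells and to natural killer cells. A heavy chain, encoded by an HLA gene, pairs with the light chain encoded by B2M. Peptides made by the proteasome are pumped into the endoplasmic reticulum by the TAP1–TAP2 transporter, and TAPBP (tapasin) holds the empty heavy chain at the transporter until it is loaded. NLRC5 is a transactivator without a DNA-binding domain of its own, which acts at class I promoters through factors bound to a conserved set of elements, the S, X and Y boxes, and further elements bind NF-kB and the interferon regulatory factors. In many tumours these genes are silenced and can be reactivated, and SETDB1, a histone methyltransferase that acts with HUSH, and Polycomb complexes are known to take part in that silencing.

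The promoters of the heavy chains and of B2M are shown because they carry the elements through which class I genes are switched on together. Sequences were taken from RefSeq on GRCh38.p14 and run from 250 bases before the transcription start to 50 bases after it, 5′ to 3′ on the strand of the gene. They matched 7 of the 9 genes by symbol, and HLA-E and NLRC5 were not matched. Capitals mark matches on either strand to 4 motifs: the Y-box core CCAAT, the core TGACG of the cAMP response element in the X region, the interferon-response motif GAAANNGAAA and the NF-kB motif GGGGATTCC. HLA-B lies at chr6:31357130-31357429 on the minus strand, HLA-C at chr6:31272043-31272342 on the minus strand, HLA-F at chr6:29723184-29723483 on the plus strand and B2M at chr15:44711267-44711566 on the plus strand.
HLA-B: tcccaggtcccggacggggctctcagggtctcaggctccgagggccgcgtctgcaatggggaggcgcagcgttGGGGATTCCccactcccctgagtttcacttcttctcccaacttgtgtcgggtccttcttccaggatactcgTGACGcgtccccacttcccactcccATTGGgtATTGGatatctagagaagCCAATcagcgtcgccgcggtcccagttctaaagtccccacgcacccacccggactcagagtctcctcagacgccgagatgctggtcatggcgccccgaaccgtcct
HLA-C: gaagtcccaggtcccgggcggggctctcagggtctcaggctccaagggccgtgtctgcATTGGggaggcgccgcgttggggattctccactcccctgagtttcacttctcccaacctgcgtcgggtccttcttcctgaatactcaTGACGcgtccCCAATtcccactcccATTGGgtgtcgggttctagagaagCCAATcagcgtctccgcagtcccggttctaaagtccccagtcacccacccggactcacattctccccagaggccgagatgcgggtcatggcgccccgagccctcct
HLA-F: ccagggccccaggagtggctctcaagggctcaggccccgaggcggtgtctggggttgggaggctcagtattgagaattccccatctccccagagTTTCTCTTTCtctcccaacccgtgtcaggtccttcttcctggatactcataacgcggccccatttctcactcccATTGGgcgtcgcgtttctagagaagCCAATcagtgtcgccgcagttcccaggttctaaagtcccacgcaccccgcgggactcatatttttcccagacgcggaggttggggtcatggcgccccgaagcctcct
B2M: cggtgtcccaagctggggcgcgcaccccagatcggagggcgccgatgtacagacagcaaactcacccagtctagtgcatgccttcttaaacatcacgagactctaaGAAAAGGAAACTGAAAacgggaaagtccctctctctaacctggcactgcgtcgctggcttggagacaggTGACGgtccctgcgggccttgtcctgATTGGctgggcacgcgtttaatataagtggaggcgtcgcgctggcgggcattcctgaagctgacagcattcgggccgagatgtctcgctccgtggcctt

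In the HLA-B promoter, counting −1 as the base before the start, TGACG lay at −106 to −102. The Y-box core was matched on the other strand, as ATTGG, at −81 to −77 and −74 to −70, and as CCAAT at −56 to −52. HLA-C held TGACG at −105 to −101. Its ATTGG matches lay at −192 to −188 and −80 to −76, and its CCAAT matches at −95 to −91 and −56 to −52. HLA-F held ATTGG at −82 to −78, CCAAT at −57 to −53 and no TGACG in this window. B2M held TGACG at −75 to −71 and ATTGG at −49 to −45. Which of several matches in a promoter is the Y box of the conserved set was not tested. The same order of elements, with TGACG upstream of a Y-box core, was therefore present in HLA-B, HLA-C and B2M.

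The interferon-response motif was found at −156 to −147 in HLA-F, once in TAP2 at −58 to −49, and as overlapping pairs of matches in B2M, from −144 to −129, and in TAPBP, from −20 to −5. The NF-kB motif was found in HLA-B alone among the 7, at −177 to −169. TAP1 held none of the 4 motifs in its window. Over all 35116 RefSeq promoters of the same length, CCAAT was present in 34.6%, TGACG in 24.6%, the interferon-response motif in 3.57% and the NF-kB motif in 0.285%. These matches describe letters and not bound sites.

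**Figure D1:**
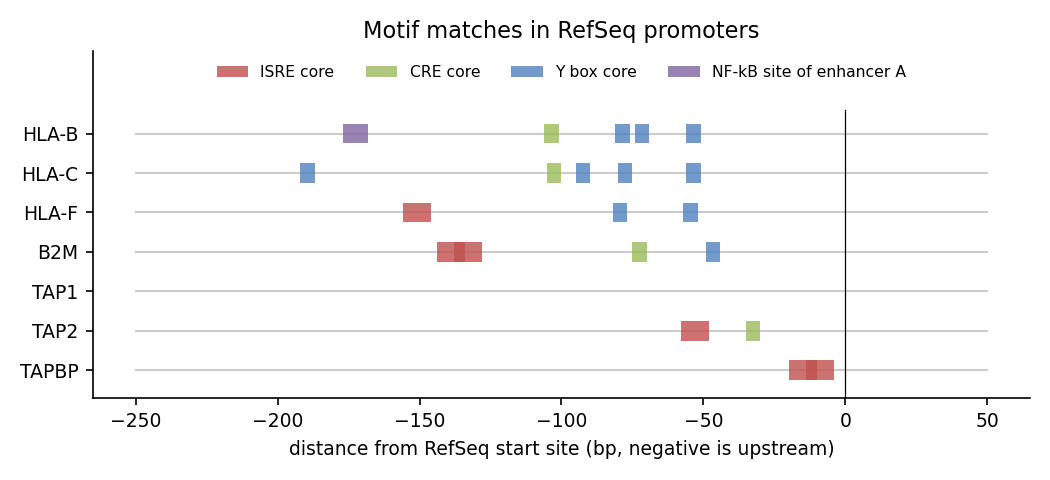
Motif matches in the promoter windows of the 7 matched genes, with distance from the transcription start in bases on the x axis and 1 line per gene; each coloured mark is a match on either strand to 1 of the 4 motifs (ISRE is the interferon-response motif, CRE the cAMP response element). Matches to the Y-box core in HLA-B, HLA-C and HLA-F line up near −80, as ATTGG, and near −56, as CCAAT. TAP1 has no mark, and the interferon-response marks of TAPBP lie closest to the start.

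The heavy-chain promoters resemble each other, which bears on how well their fragments can be told apart. HLA-B and HLA-C were identical at 269 of 304 aligned columns (88.5%), with a longest shared run of 25 bases, which is shorter than the 65-base reads. HLA-F was 79.7% identical to HLA-B and 78.8% to HLA-C. All other pairs among the 7 promoters lay between 47.5% and 51.6%. Reads that fit several places were removed by the mapping-quality filter, so counts of the HLA promoters carry an uncertainty beyond their replicate error, and its part in the values was not tested.

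Promoter totals ranged from 9435801 to 15152636 fragments per library, of which 20.6% to 35.1% were at mitochondrial rows, and the deepest library with the lowest mitochondrial share was MORC2 KO replicate 2. The edited gene was checked first: the MORC2 promoter had 37.0 and 37.5 CPM in KO cells against 25.7 and 29.6 in WT cells (log2 fold change 0.43, SE 0.087, adjusted p = 0.000279), with nearly the same counts in the row of the neighbouring TUG1. ATAC-seq at a promoter does not report whether MORC2 protein was lost. The study checked MORC2 protein in its KO lines by western blot, which was not examined here. Promoters of 6 kidney and HEK marker genes had 5.75 to 74.8 CPM in WT cells, and those of 8 blood-cell markers had 1.71 to 9.66 CPM. The blood markers summed to 44.2 and 40.8 CPM in WT and to 40.2 and 38.0 in MORC2 KO libraries, and 0 of either list were called by edgeR, with 1 HEK and 2 blood markers at an unadjusted p under 0.05.

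In WT cells all 9 promoters were covered, and their levels spanned 5.41-fold from the lowest mean to the highest. CPM is scaled to the library and not to window length, which was 2 kb for every promoter as the study describes it. The peptide transporter stood highest, with TAP1 at 46.7 ± 4.40 CPM and TAP2 at 45.7 ± 3.83 CPM (n = 2 each), and these overlapped. HLA-E followed at 36.5 ± 0.234, then B2M at 31.4 ± 2.19 and TAPBP at 30.2 ± 1.05, which overlapped. HLA-C at 23.8 ± 0.433 and HLA-F at 21.5 ± 3.27 overlapped as well, and NLRC5 at 15.4 ± 1.42 and HLA-B at 8.64 ± 0.317 stood lowest.

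Against all 27647 promoters tested, whose median WT level was 16.7 CPM, 7 members lay above the median and NLRC5 and HLA-B below it. TAP1 was higher than 82.0% of tested promoters in WT cells, HLA-E than 72.1% and HLA-B than 40.6%. The same order held in MORC2 KO cells except where neighbours overlapped, with TAP2 and TAP1 at the top and NLRC5 and HLA-B at the bottom. Summed over the 9 promoters, the level was 262.1 and 257.4 CPM in WT and 282.2 and 265.6 CPM in MORC2 KO libraries.

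**Figure D2:**
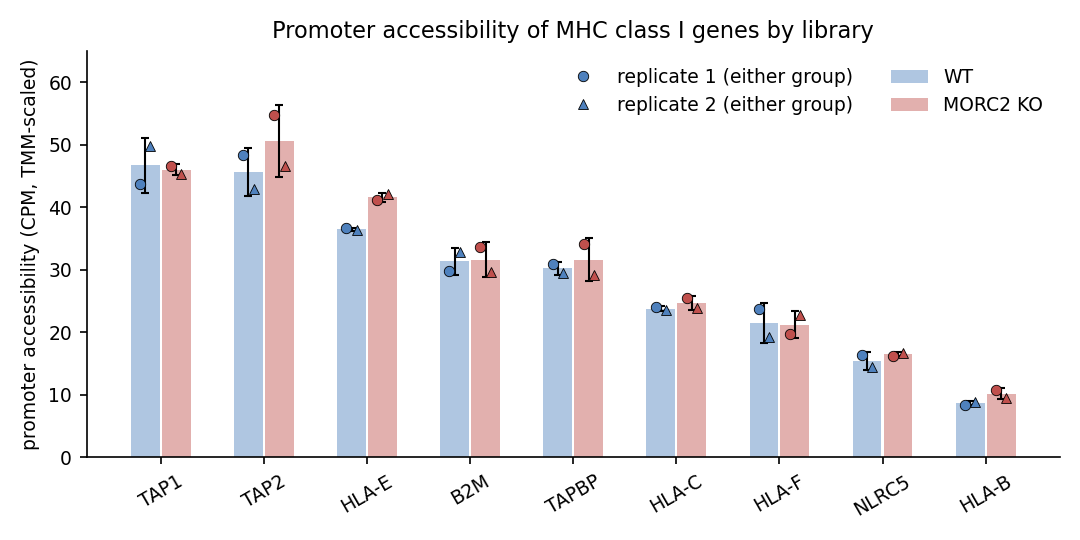
Accessibility of the 9 promoters in each library, in TMM-scaled CPM on the y axis, with 1 point per library and the mean and SD (n = 2) of each group. WT means run from 8.64 CPM at HLA-B to 46.7 at TAP1, and the MORC2 KO points lie wholly above the WT points at HLA-B and HLA-E alone.

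The comparison of MORC2 KO with WT asks whether accessibility of class I promoters changes when MORC2 is lost. Of 27647 promoters tested, 1229 (4.45%) were called at an adjusted p under 0.05, 954 of them higher and 275 lower in MORC2 KO. This share depends on the processing and on single libraries: the calls numbered 20 with total count scaling, 7 with DESeq2, 41 without KO replicate 2 and 230 without WT replicate 2. Of the 9 members 0 were called by edgeR, and 0 by DESeq2 or limma-trend, and 1 had an unadjusted p under 0.05. The KO values exceeded the WT values without overlap at 2 members, against 25.2% of all promoters tested, and below them at 0 members, against 25.4%. The fold change was above 0 at 6 of 9 members with a median of 0.05 on the log2 scale, and the median over all promoters tested was −0.017.

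HLA-E encodes a class I molecule that presents signal peptides of other HLA chains to natural killer cells. Its promoter had 448 and 717 fragments in KO against 353 and 328 in WT libraries, which is 41.1 and 42.0 against 36.7 and 36.3 CPM. Both KO values were above both WT values, and replicates within a group lay close together. The log2 fold change was 0.19 (SE 0.079, 95% interval 0.035 to 0.35), or 1.14-fold, and the adjusted p was 0.144.

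HLA-B, a classical heavy chain that presents peptides to CD8 T cells, had the lowest level and the largest fold change of the 9. It had 118 and 163 fragments in KO and 81 and 80 in WT libraries, or 10.8 and 9.56 against 8.41 and 8.86 CPM. The groups did not overlap, but the fragments were few and the error was accordingly the widest of the members. The log2 fold change was 0.22 (SE 0.157, 95% interval −0.085 to 0.53) with an adjusted p of 0.423, and a change of 0.48 would have been needed for a call at this error.

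HLA-C, the other classical heavy chain measured, is also a main ligand of killer-cell receptors. Its promoter gave 25.5 and 23.9 CPM in KO and 24.1 and 23.5 in WT libraries, which overlapped. The log2 fold change was 0.05 (SE 0.098, 95% interval −0.15 to 0.24, adjusted p = 0.824). HLA-F, a heavy chain found mostly inside the cell, had 19.7 and 22.8 CPM in KO and 23.8 and 19.2 in WT libraries. Both KO values fell between the WT values, and the log2 fold change was −0.0028 (SE 0.103, adjusted p = 0.993) with an interval from −0.21 to 0.20.

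B2M encodes the light chain that pairs with class I heavy chains. Its promoter had 366 and 505 fragments in KO and 287 and 297 in WT libraries, or 33.6 and 29.6 against 29.8 and 32.9 CPM. The KO values enclosed the WT values. The log2 fold change was −0.0019 (SE 0.087, adjusted p = 0.994), and its 95% interval of −0.17 to 0.17 leaves out changes larger than these bounds.

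The transporter genes TAP1 and TAP2, whose products form a heterodimer, lie near each other in the class II part of the MHC. TAP1 had 46.6 and 45.3 CPM in KO and 43.6 and 49.8 in WT libraries, with both KO values between the WT values, and and gave −0.025 on the log2 scale (SE 0.074, 95% interval −0.17 to 0.12, adjusted p = 0.880). TAP2 had 54.7 and 46.5 CPM in KO and 48.4 and 43.0 in WT libraries. Its groups overlapped, since KO replicate 2 lay below WT replicate 1, and the log2 fold change was 0.13 (SE 0.073, 95% interval −0.017 to 0.27, adjusted p = 0.314).

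TAPBP, the tapasin gene, had 34.0 and 29.2 CPM in KO and 30.9 and 29.5 in WT libraries. KO replicate 1 was the highest of the 4 values and KO replicate 2 the lowest, and the log2 fold change was 0.05 (SE 0.088, 95% interval −0.13 to 0.22, adjusted p = 0.800). NLRC5, the transactivator of the class I genes, had 16.2 and 16.7 CPM in KO and 16.4 and 14.4 in WT libraries. These overlapped through WT replicate 1, and the log2 fold change was 0.10 (SE 0.119, 95% interval −0.14 to 0.33, adjusted p = 0.673).

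**Figure D3:**
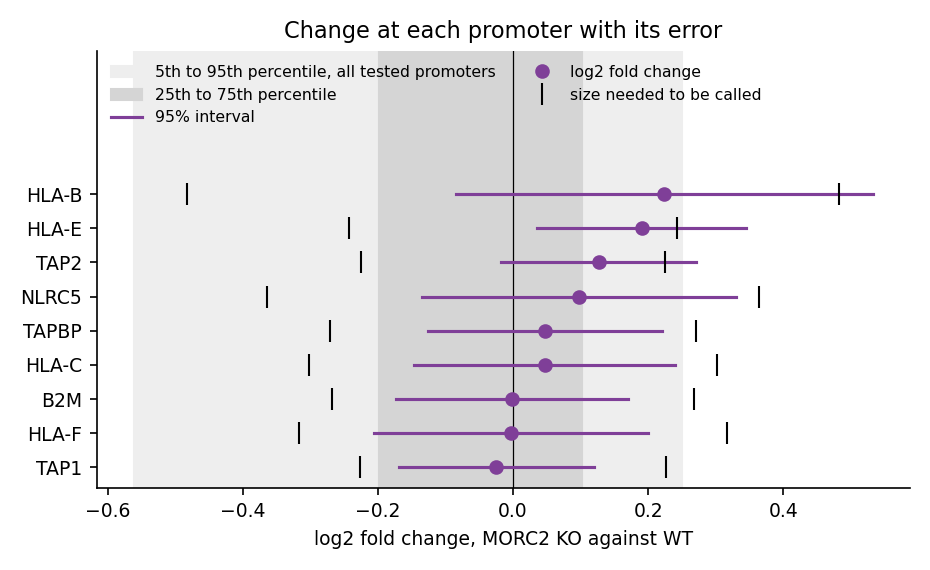
Log2 fold change of MORC2 KO over WT at each of the 9 promoters, with its 95% interval as a bar, black ticks at the size of change that would have been called at that promoter's error, and grey bands for the spread of all tested promoters. The intervals of all members except HLA-E reach 0, and HLA-B has the widest.

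What could be seen differed between members with their depth. A call would have needed a log2 change of 0.225 at TAP2, the best measured, and of 0.48 at HLA-B, the least covered, so smaller differences were not detectable at this depth. An exact permutation test of a single promoter in 2 against 2 libraries cannot give a two-sided p below 0.333.

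The KO pools, made with different guides, were compared with each other. KO replicate 1 was the higher of the pair at 6 of 9 members, and the median absolute difference between the KO libraries was 0.17 on the log2 scale, against 0.14 between the WT libraries. At HLA-F, B2M and TAPBP the KO libraries lay on opposite sides of the WT mean. TAP2 stood 0.26 above the WT mean in KO replicate 1 and 0.028 above it in KO replicate 2. HLA-E was the most even of those above WT, at 0.17 and 0.20.

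Fold changes across all promoters moved with the level of the promoter, and the members were therefore set beside promoters of like level. Over the 10 equal classes of mean abundance, the median log2 fold change ran from −0.29 in the lowest to 0.083 in the highest. HLA-E, at 0.19, lay in a class with a median of 0.061, and HLA-B, also above its class, in one with a median of −0.032. TAP1 and TAP2 shared a class with a median of 0.075, with TAP1 below it and TAP2 above. In all, 5 of 9 members were above the median of their class, and every member lay within the central 5% to 95% range over all promoters, from −0.56 to 0.25.

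**Figure D4:**
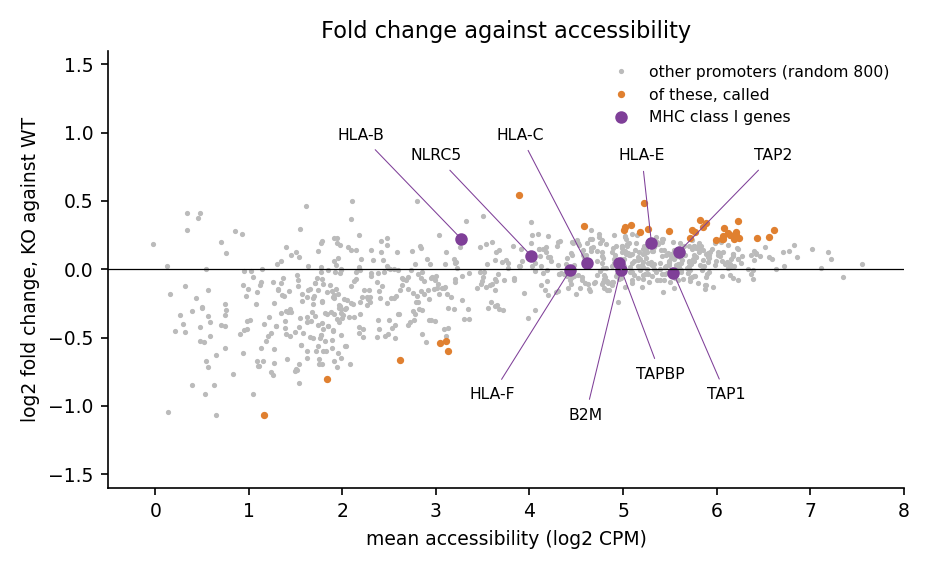
Log2 fold change of MORC2 KO over WT on the y axis against mean log2 CPM on the x axis, for the 9 members as named points and 800 other tested promoters drawn at random, in grey or, where called, in orange; 1 of the 800 lies beyond the right edge. The members sit from the middle to the upper part of the range of levels and inside the cloud of other promoters.

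Neighbouring genes whose promoter windows overlap can count the same fragments in both rows, and positions on the build of the files were not used here to see where windows overlap. The row of PATL2, next to B2M, held counts within 1.35% of those of B2M in every library (log2 fold change −0.010, adjusted p = 0.961). PSMB9, a subunit of the immunoproteasome that is transcribed away from TAP1, held counts within 2.14% of those of TAP1 (−0.035, adjusted p = 0.823). Counts this alike are what a shared window would give, and the rows of B2M and PATL2, or of TAP1 and PSMB9, are not treated as independent values.

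Other nearby rows with counts within 25% of a member's were less alike, and similarity of counts alone does not show shared fragments. They were HCG27 by HLA-C (log2 fold change 0.074), IFITM4P by HLA-F (0.099), SPG11 and RNF4BP by B2M, LOC100294145 by TAP1 (0.15) and MIR6834 by TAPBP (0.14). The rows next to HLA-E in gene order were RPP21, a subunit of ribonuclease P, at 0.21 with an adjusted p of 0.185, and LINC02569 at −0.19. Next to HLA-B were LINC02571 at −0.42 and MICA-AS1 at 0.11. The remaining adjacent rows that were tested lay between −0.30 at CETP, next to NLRC5, and 0.086 at RGL2, next to TAPBP, and none of the rows adjacent to a member was called. Over 20 places on each side, medians ran from −0.14 around NLRC5 to 0.012 around HLA-E and TAPBP, and 0 promoters were called by edgeR in any of the 9 neighbourhoods, with 3 to 9 at an unadjusted p under 0.05.

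Because 7 of the 9 genes lie on chromosome 6, the stretch of the MHC from HLA-F to TAPBP was described as a whole, in the gene order of RefSeq. It held 204 promoters, of which 201 were tested, with a median log2 fold change of −0.0058 and 98 above 0. The number called was 1, or 0.498%, against 4.45% of all promoters. That promoter was SNHG32, a host gene of small nucleolar RNAs, with 31.4 and 49.0 CPM in KO and 32.3 and 33.8 in WT libraries (log2 fold change 0.33, SE 0.082, adjusted p = 0.00573). Its call rests on KO replicate 2, and without that library the value was −0.068 with an adjusted p of 0.877.

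The next in the same stretch by p were AGER, a receptor for glycated proteins, at −0.36 (adjusted p = 0.0823), and SNORD48, at 0.24 (adjusted p = 0.122). AGER had 11.2 and 12.0 CPM in KO and 15.5 and 14.5 in WT libraries, without overlap. SNORD48 had 21.5 and 32.8 CPM in KO and 23.4 and 24.1 in WT libraries, and KO replicate 2 stood alone above the rest, as at SNHG32. The row of SNORD48 directly follows that of SNHG32 in gene order. Whether their windows share fragments was not tested, and the rows are not treated as independent values.

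**Figure D5:**
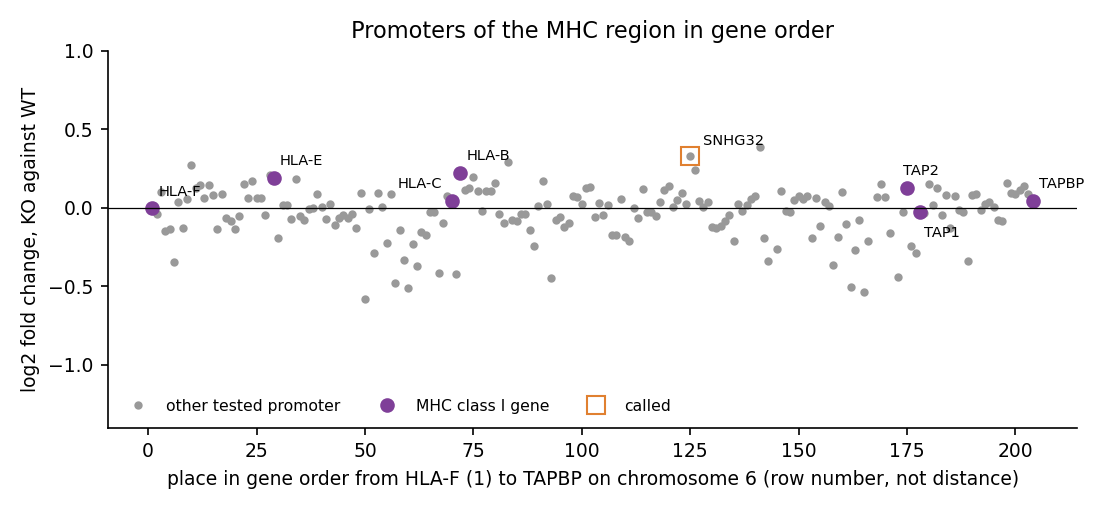
Log2 fold change of MORC2 KO over WT for the 201 tested promoters from HLA-F to TAPBP, with the rank in RefSeq gene order on the x axis; members and the called promoter are named. Values scatter about a median of −0.0058, and the called promoter SNHG32 lies at 0.33.

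The other genes of the class I pathway were 13 in number and comprised immunoproteasome subunits, the proteasome activator, peptide-trimming aminopeptidases and chaperones of the peptide-loading complex. Of these 0 were called by edgeR, 2 had an unadjusted p under 0.05, and 5 were above 0, with a median log2 fold change of −0.017. LNPEP, an aminopeptidase that trims peptides for cross-presentation, had the highest WT level of the list and was at 134.0 and 136.0 CPM in KO and 126.0 and 112.5 in WT libraries (log2 fold change 0.18, SE 0.061, adjusted p = 0.0644). ERAP1, which trims peptides in the endoplasmic reticulum, had 2.11 and 2.70 CPM in KO and 3.95 and 3.10 in WT libraries (−0.52, SE 0.265, adjusted p = 0.244). Neither pair of groups overlapped, and both values missed the threshold. PSMB9 of this list, with counts nearly those of TAP1, is not treated as an independent value.

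Among 19 regulators of class I transcription, 3 were called, all higher in MORC2 KO, and 14 were above 0, with a median log2 fold change of 0.077. Over all promoters 4.45% were called, and in the 3 highest abundance classes, which hold all but 1 of these regulators, 7.74%, 8.72% and 11.9%. CREB1, which binds the cAMP response element in the X region, had 81.2 and 89.9 CPM in KO and 73.8 and 73.3 in WT libraries (0.23, SE 0.065, adjusted p = 0.0214). NFKB1, the precursor of an NF-kB subunit, had 57.4 and 56.5 against 48.0 and 48.2 CPM (0.24, SE 0.071, adjusted p = 0.0259). JAK2, a kinase of the interferon-gamma receptor, had 61.4 and 66.1 against 59.5 and 50.0 CPM (0.22, SE 0.069, adjusted p = 0.0349). In all 3 the KO values lay above the WT values.

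These 3 changes were small, and each was close to the size needed for a call at its error, which was 0.20 for CREB1, 0.22 for NFKB1 and 0.21 for JAK2. Leaving out KO replicate 2 gave 0.15 for CREB1 (adjusted p = 0.543) and 0.17 for JAK2 (adjusted p = 0.507), leaving out WT replicate 2 ended both calls as well (0.22 and 0.11, adjusted p = 0.114 and 0.562), and NFKB1, whose fold change stayed between 0.24 and 0.26 on the log2 scale, was called in none of the 4 fits without a library (adjusted p = 0.0666 to 0.236). These regulators were among the most accessible promoters, with a median WT level of 48.1 CPM, and promoters of that level had a positive median fold change, as given above. NFYA, a subunit of the CCAAT-binding factor with the highest WT level of the list, was at 0.066.

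Genes of Polycomb complexes and of the SETDB1 machinery, which silence class I genes in other settings, numbered 16, and 0 were called by edgeR, with 0 at an unadjusted p under 0.05. Their median log2 fold change was 0.014, with 10 above 0. RBBP4, a histone-binding subunit of Polycomb repressive and other complexes, had the highest WT level, at 128.2 CPM, and 120.1 and 116.8 CPM in KO libraries, or −0.12 on the log2 scale (SE 0.061, adjusted p = 0.265). ATF7IP, the partner that stabilises SETDB1, was at 0.14 (SE 0.112, adjusted p = 0.480).

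Of 13 class I-like genes, which include ligands of the receptor NKG2D on natural killer cells, 0 were called by edgeR and 2 had an unadjusted p under 0.05, with 9 above 0 and a median of 0.033. Those 2 were the NKG2D ligands RAET1G, at 32.6 and 31.6 CPM in KO and 29.2 and 27.3 in WT libraries (0.18, SE 0.089, adjusted p = 0.226), and ULBP1, at 42.1 and 41.9 against 38.3 and 36.9 CPM (0.16, SE 0.078, adjusted p = 0.231). KO values were above WT values in both. ULBP3, a further ligand, had the highest WT level, at 75.7 CPM, and a log2 fold change of 0.033.

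The class II genes, which antigen-presenting cells use and kidney cells largely do not, gave lower values than the class I members. Of 13 listed, 11 were tested: HLA-DRB1, at 5 to 7 fragments per library, did not pass the filter, and HLA-DRB5 was not analysed here. Their median WT level was 8.36 CPM, against 30.2 CPM for the 9 class I members, and ranged from 3.07 to 22.7. None was called by edgeR, with 0 at an unadjusted p under 0.05, and 7 were above 0 with a median of 0.017. CIITA, the class II counterpart of NLRC5, was at 3.30 and 3.87 CPM in KO and 4.78 and 4.43 in WT libraries (log2 fold change −0.34, SE 0.229, adjusted p = 0.400). HLA-DQB1 was at 0.15 (adjusted p = 0.520), and HLA-DMB, a chaperone of class II loading, had the highest WT level, at 22.7 ± 3.44 CPM (n = 2).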

How the data were processed

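ATAC-seq libraries of HEK293T cells (2 MORC2 KO, 2 WT) were sequenced as 65-base pairs. After trimming with Trim Galore, the authors mapped the pairs to T2T-CHM13 using bowtie2, kept pairs with a mapping quality of at least 30, removed duplicates with Picard, and deposited raw fragment counts per promoter, one row per NCBI Gene ID. The submitters' processing notes also name featureCounts of Subread 2.0.6. A promoter is described as a 2 kb window, and how fragments were assigned to the rows of this table is not given in the sources used here. Whether Tn5 offsets were applied is not given there either. The deposited WT peak list was not used, because its positions could not be assigned to promoters here. No deposited column was left unmapped (0).

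Symbols and gene order came from RefSeq on GRCh38.p14, matching 28763 of 28775 IDs; because the build differs, its coordinates were used only for order and for the printed sequences. Counts were filtered with filterByExpr (1128 promoters removed, 27647 kept), scaled by TMM and compared in R 4.3.3 with edgeR 4.0.16 (quasi-likelihood F-test, legacy fit, no covariates, two-sided). P-values were adjusted by Benjamini-Hochberg over all promoters tested, and an adjusted p under 0.05 was called. Differences of single libraries from the WT mean were taken on log2(CPM + 0.5). Promoters were aligned with Biopython 1.88. Alternatives used limma 3.58.1 and DESeq2 1.42.0 among others. The study describes the WT libraries as independent replicates. Intervals assume the fitted model.

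The members and gene lists were chosen with earlier results of these data known. Named genes were all 9 members, adjacent rows and rows within 2 places with similar counts, the 3 MHC promoters of smallest p, and from each list the called promoters, or the 2 of smallest p, and the highest in WT. The replicate numbers did not pair the libraries: the deviations of same-numbered libraries correlated at 0.015.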

Additional observations from a re-analysis of the deposited data

How the results depend on the processing

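None of the 9 members was called under any alternative tried, nor at an adjusted p under 0.1, and the lowest adjusted p among them ranged from 0.112 (mitochondrial rows left out) to 0.978 (DESeq2 Wald test). HLA-B, HLA-C, HLA-E, TAP2 and NLRC5 kept a fold change above 0 throughout. The members nearest to 0 changed sign, all without a call and on the log2 scale. HLA-F became positive with DESeq2 size factors (0.0015), with total count scaling (0.13) and without mitochondrial rows (0.010), and ranged from −0.14 to 0.17 when a library was left out. B2M became positive with DESeq2 size factors (0.0023), total count scaling (0.14), without mitochondrial rows (0.011), with the replicate block (0.0023), the edgeR 4 fit (0.0100), DESeq2 (0.0099) and limma-trend (0.0099), and ranged from −0.074 to 0.11 when a library was left out. TAP1 was at 0.11 with total count scaling and from −0.12 to 0.072 without a library, and TAPBP at −0.0057 with loess offsets and from −0.030 to 0.18. Total count scaling moved the median of all promoters to 0.12 and that of the members to 0.19, and leaving out a library gave members' medians of 0.043 to 0.17, the highest without WT replicate 1.

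Calls in some of the other lists changed with the setting. Of the regulators, 0 were called with total count scaling, loess offsets, the replicate block or DESeq2, 1 with the edgeR 4 fit and 1 with limma-trend (NFKB1 in both), and 0 to 5 when a library was left out: 5 without KO replicate 1, 3 without WT replicate 1, and 0 without KO replicate 2 or WT replicate 2. The fold changes of CREB1, NFKB1 and JAK2, from 0.22 to 0.24 on the log2 scale, were 0.36 to 0.38 with total count scaling, 0.22 to 0.25 with the replicate block and DESeq2, and 0.14 to 0.17 with loess offsets. In the class I pathway list, LNPEP alone was called without mitochondrial rows or at an adjusted p under 0.1 (1 in each), and 0 to 1 when a library was left out (LNPEP without WT replicate 1). With loess offsets 1 Polycomb gene was called (RBBP4, −0.21). Over all promoters the calls numbered 20 with total count scaling, 394 with loess offsets, 765 with the replicate block, 841 with the edgeR 4 fit, 717 with limma-trend and 7 with DESeq2, against 1229, and 41 to 1637 without a library. The same replicate numbers did not pair the libraries, so a call lost under the replicate block is not read as a weaker difference. The cause of these changes was not tested.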
